A study of Mus musculus with 10 samples.

Results

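The genes described here are 9 genes of the insulin-like growth factor (IGF) system: the binding proteins Igfbp2, Igfbp3, Igfbp4, Igfbp5, Igfbp6 and Igfbp7, the ligand gene Igf1, and the receptor genes Igf1r and Igf2r. They were taken by symbol from a table of 26401 mouse genes. Igfbp5 was not analysed here. Of the other 8, Igfbp2 had no count in any library, 7 had counts, and 4 (Igfbp4, Igfbp6, Igf1r and Igf2r) passed the filter on low counts and were tested.

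IGFs are small secreted hormones that promote growth and survival. They act through the tyrosine kinase receptor IGF1R, which signals through the insulin receptor substrates to PI3 kinase and AKT, and AKT in turn keeps FOXO transcription factors out of the nucleus. IGFBPs hold IGFs in the extracellular fluid and are cut by proteases such as pappalysin, which frees the ligand. IGF2R is the large receptor that carries mannose 6-phosphate tagged enzymes to lysosomes and also removes IGF2 from the cell surface. Fibroblasts make and secrete IGFBPs, and the set they make differs with their origin and state.

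RNA was sequenced after poly(A) selection from 10 populations of immortalized mouse embryonic fibroblasts (MEFs), recorded with the strain name C57Bl/6N. All carried the mitochondrial DNA change m.5024C>T, which lies in the gene for mitochondrial alanine tRNA, beside normal mitochondrial genomes. The mutant share was high in 5 populations and low in 5. The share in each clone is not in the labels used here. Each population gave 1 library and has a clone number of its own, so a group is a set of different clones and clone and heteroplasmy cannot be told apart within 1 library. All were grown in high-glucose DMEM with 10% serum and 50 µg/ml uridine, and serum itself supplies IGFs and IGFBPs that RNA does not show. Libraries are numbered 1 to 5 within each group. The labels do not say whether the clones come from separate embryos, and p-values measure the spread between these clones.

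Counts on genes ran from 17318372 to 24967748 per low library and from 19264064 to 28208576 per high library. The fibroblast label was borne out by the collagen and vimentin genes: 12 of 13 fibroblast markers had a mean of at least 1 CPM (a gene's count as a share of the library total, in the usual CPM unit, with totals scaled between libraries by the TMM method), and their sum was 11784 to 13627 CPM in the low and 9505 to 19716 CPM in the high libraries. The matrix gene Dcn reached that level only through the low libraries. It was at 0.489 to 3.53 CPM (mean 2.00) there and at 0 to 0.609 CPM (mean 0.172) in the high libraries. Some markers of endothelium (Cdh5, Tie1), leukocytes (Ptprc), glia (Sox10), smooth muscle (Myocd) and skeletal muscle (Myog) were at 0 in all libraries. Other markers of these lists had counts. A mean of at least 1 CPM was also reached by 6 of 8 epithelial, 4 of 6 smooth muscle and 4 of 6 neural and glial markers. Shares in the other lists were lower, and that count alone does not mark fibroblasts. Endothelial markers summed to 5.22 to 15.8 CPM in the low and 15.2 to 24.5 CPM in the high libraries. Smooth muscle markers summed to 10.4 to 41.6 and 7.12 to 43.7 CPM, and macrophage and leukocyte markers to 12.6 to 26.5 and 11.8 to 90.4 CPM. Epithelial markers summed to 461 to 697 CPM in the low and 123 to 512 CPM in the high libraries, adipocyte markers to 11.8 to 24.7 and 43.0 to 148 CPM, and neural and glial markers to 317 to 398 and 141 to 269 CPM. The part of these marker differences in the results was not tested, and fewer cells of a type and less RNA per cell cannot be told apart in bulk RNA.

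The promoters of the most abundant and of the least steady IGFBP gene are shown because they stand at opposite ends in level and steadiness among the IGFBP genes with counts in every library. Each window is the 250 bases before the RefSeq start site in GRCm38.p6, with matches to the TATA box letters TATAAA or the GC box letters GGGCGG, on either strand, in capitals.
Igfbp4 promoter, chr11:99040994-99041243, plus strand: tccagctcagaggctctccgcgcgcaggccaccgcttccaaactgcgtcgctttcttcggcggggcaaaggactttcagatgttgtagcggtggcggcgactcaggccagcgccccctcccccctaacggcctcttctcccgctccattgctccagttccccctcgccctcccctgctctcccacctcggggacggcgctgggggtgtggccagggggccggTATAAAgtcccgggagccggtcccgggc
Igfbp3 promoter, chr11:7213924-7214173, minus strand: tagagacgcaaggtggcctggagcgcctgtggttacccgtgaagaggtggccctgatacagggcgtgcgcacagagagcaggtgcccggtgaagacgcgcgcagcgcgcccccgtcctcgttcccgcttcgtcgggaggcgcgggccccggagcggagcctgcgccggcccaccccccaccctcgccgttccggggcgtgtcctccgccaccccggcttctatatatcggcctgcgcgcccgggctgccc
The Igfbp4 window held 1 TATAAA match, starting 28 bases before the start site (position -28), and the Igfbp3 window held none in these exact letters. The Igfbp6 window, not shown, also held 1, on the other strand at position -148. Of 32851 promoter windows of this length, 12.4% held TATAAA and 32.7% held GGGCGG. Both windows were rich in G and C, at 69.2% for Igfbp4 and 73.2% for Igfbp3, against a median of 52.4% over all windows. GGGCGG was in the windows of Igf1r (2 matches), Igf2r (3), Igfbp7 (4) and 1 start site of Igfbp2 (3). The FOXO core letters TGTTTAC were in 3.17% of all windows, on either strand, and in none of the members' windows. The Igf1 window among these lies wholly inside annotated exons.

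Per length of transcript, the members spanned more than 3 orders of magnitude, with Igfbp4 on top. Levels are compared between genes as CPM per kb of the merged exons of a gene, which understates a gene with a long model such as Igf1r. On that scale Igfbp4 averaged 191 over the 10 libraries (73.8 to 301), Igf2r 21.3 (15.0 to 25.2), Igfbp6 6.90 (0.918 to 16.7) and Igf1r 0.877 (0.654 to 1.27). This order of 4 genes held in all 10 libraries: Igfbp4 was 3.36 to 15.9 times Igf2r, Igf2r 1.51 to 24.0 times Igfbp6, and Igfbp6 1.39 to 25.5 times Igf1r. The ranges over libraries of the neighbours Igf2r and Igfbp6 met, as did those of Igfbp6 and Igf1r, so the order of these neighbours holds within a library and not between any pair of libraries. Igfbp3 averaged 0.190, Igfbp7 0.0758 and Igf1 0.0633 CPM per kb, and their ranges overlapped widely. Of the summed IGFBP level per length, without Igfbp5, Igfbp4 held 92.3% to 98.7% in each library and Igfbp6 1.23% to 7.63%, and Igfbp3 never held more than 0.383%.

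**Figure D1:**
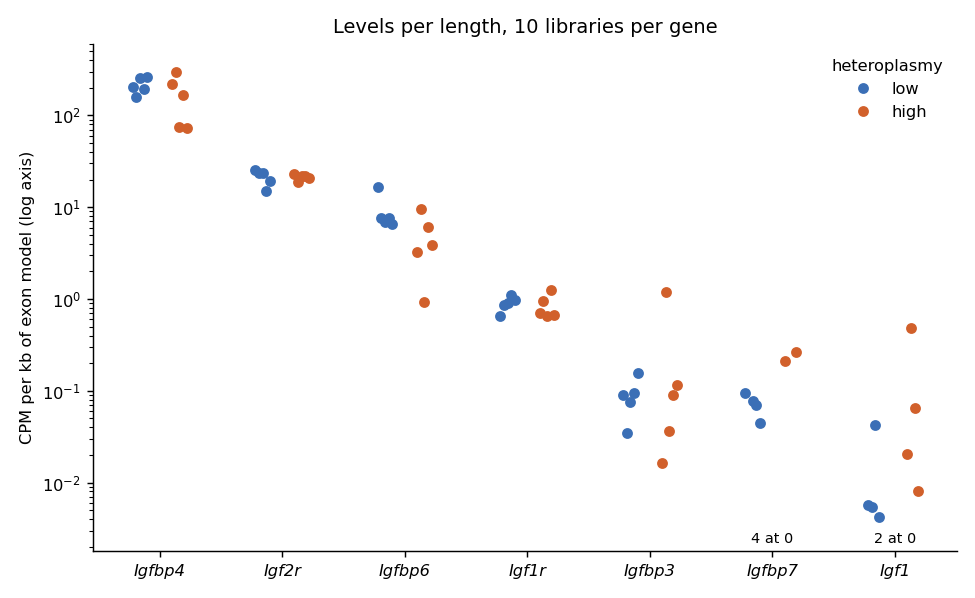
Level of each IGF gene per kb of exon model (log axis) in the 5 low (blue) and 5 high (orange) libraries, with the number of libraries at 0 written below a gene. Igfbp4 lies highest in every library, and Igfbp3 and Igf1 have 1 high library far above the rest.

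Setting the high against the low clones asks whether IGF gene expression goes with mutation load. None of the 4 tested members passed the edgeR quasi-likelihood test (0 of 4 at a Benjamini-Hochberg adjusted p under 0.05). Of all 12964 tested genes 4.86% passed, 1.99% higher and 2.87% lower. At an unadjusted p under 0.05 edgeR had 0 of the 4, beside 21.6% of all tested genes. That unadjusted share was not counted for DESeq2 or limma-voom. DESeq2 called 0 of the 6 members it gave an adjusted p (1, Igf1, at an unadjusted p under 0.05), where 10.2% of all genes passed, 4.56% higher and 5.65% lower. Limma-voom called 0 of 4 (1, Igfbp6, at an unadjusted p under 0.05), where 5.3% passed, 1.8% higher and 3.49% lower. All 4 log2 fold changes, high over low, were below 0, with a median of -0.22 against 0.02 for all tested genes, of which 47.7% were below 0. In none of the 4 did the values of the groups separate, which happened for 7.16% of tested genes.

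Igfbp4 (ENSMUSG00000017493, chromosome 11, 99041244 to 99054392 in GRCm38) encodes a binding protein that mostly restrains IGF action and is the classic substrate of pappalysin. Its level was 891, 697, 1140.45, 866 and 1147 CPM in low 1 to low 5, and 975, 1328, 326, 744 and 326 CPM in high 1 to high 5. High 3 and high 5 were far below every other library, whereas high 2 was above all, so the groups overlapped at both ends. The means were 948 ± 194 CPM in the low and 739.9 ± 431 CPM in the high group (SD, n = 5 each). The log2 fold change was -0.36 (SE 0.37, 95% interval -1.17 to 0.46, edgeR adjusted p = 0.634). It was -0.68 without high 2, -0.17 without high 3 and -0.18 without high 5. High 3 and high 5 are also the deepest libraries, with 26737561 and 28208576 counts, and the part of depth in their Igfbp4 level was not tested.

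Igfbp6 (ENSMUSG00000023046, chromosome 15, 102144362 to 102149511) encodes the binding protein with a marked preference for IGF2. It was at 18.5, 8.47, 7.68, 8.53 and 7.23 CPM in low 1 to low 5, and at 3.65, 10.5, 1.02, 6.79 and 4.29 CPM in high 1 to high 5. Of the high libraries, 4 lay below every low library and high 2 lay within the low range. The means were 10.1 ± 4.76 and 5.25 ± 3.59 CPM (SD, n = 5 each). Its log2 fold change of -0.94 was the largest in size among the tested members and did not pass (SE 0.51, 95% interval -2.06 to 0.18, edgeR adjusted p = 0.317). Counts behind these values were 27 to 326 per library, with the 27 in high 3. The value was -1.36 without high 2 (adjusted p = 0.164) and -0.60 without low 1 (0.577).

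Igf1r (ENSMUSG00000005533, chromosome 7, 67952827 to 68233668), the signalling receptor, was low but present in every library. It was at 10.98, 14.6, 15.3, 18.6 and 16.5 CPM in low 1 to low 5, and at 11.7, 16.1, 11.1, 21.3 and 11.2 CPM in high 1 to high 5. High 4 was highest and low 1 lowest, and the groups overlapped over nearly their whole range. The log2 fold change was -0.09 (SE 0.23, 95% interval -0.60 to 0.42, edgeR adjusted p = 0.873). Leaving out 1 library moved it between -0.0076 (without low 4) and -0.28 (without high 4), and it was also over 1.5 times smaller without low 5, high 1, high 3 or high 5 and larger without low 1 or high 2.

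Igf2r (ENSMUSG00000023830, chromosome 17, 12682406 to 12769664), the mannose 6-phosphate and IGF2 receptor, was the steadiest member. Its level was 235, 221, 222, 139.7 and 179 CPM in low 1 to low 5, and 212, 176, 205, 205 and 193 CPM in high 1 to high 5. Low 4 stood below the rest, and the high libraries lay inside the range of the low ones. The means were 199 ± 39.5 and 198 ± 14.2 CPM (SD, n = 5 each). The log2 fold change was -0.01 (SE 0.16, 95% interval -0.35 to 0.33, edgeR adjusted p = 0.985), an interval that leaves out a 2-fold change in either direction, and its sign turned with several settings. The antisense transcript Airn overlaps Igf2r without shared exon bases and was at 1.76 to 7.06 CPM. The spread over all 10 libraries (SD of log2 CPM) was 0.22 for Igf2r and 0.34 for Igf1r, against 0.71 for Igfbp4 and 1.09 for Igfbp6. Among tested genes this SD was at percentile 9.29 for Igf2r, 36.2 for Igf1r, 79.8 for Igfbp4 and 89.7 for Igfbp6. For Igfbp4 the spread was larger in the high group, with an SD of 0.92 against 0.30 in the low group. The same held for Igfbp6 (1.23 against 0.55) and Igf1r (0.41 against 0.28), whereas Igf2r went the other way (0.11 against 0.31).

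**Figure D2:**
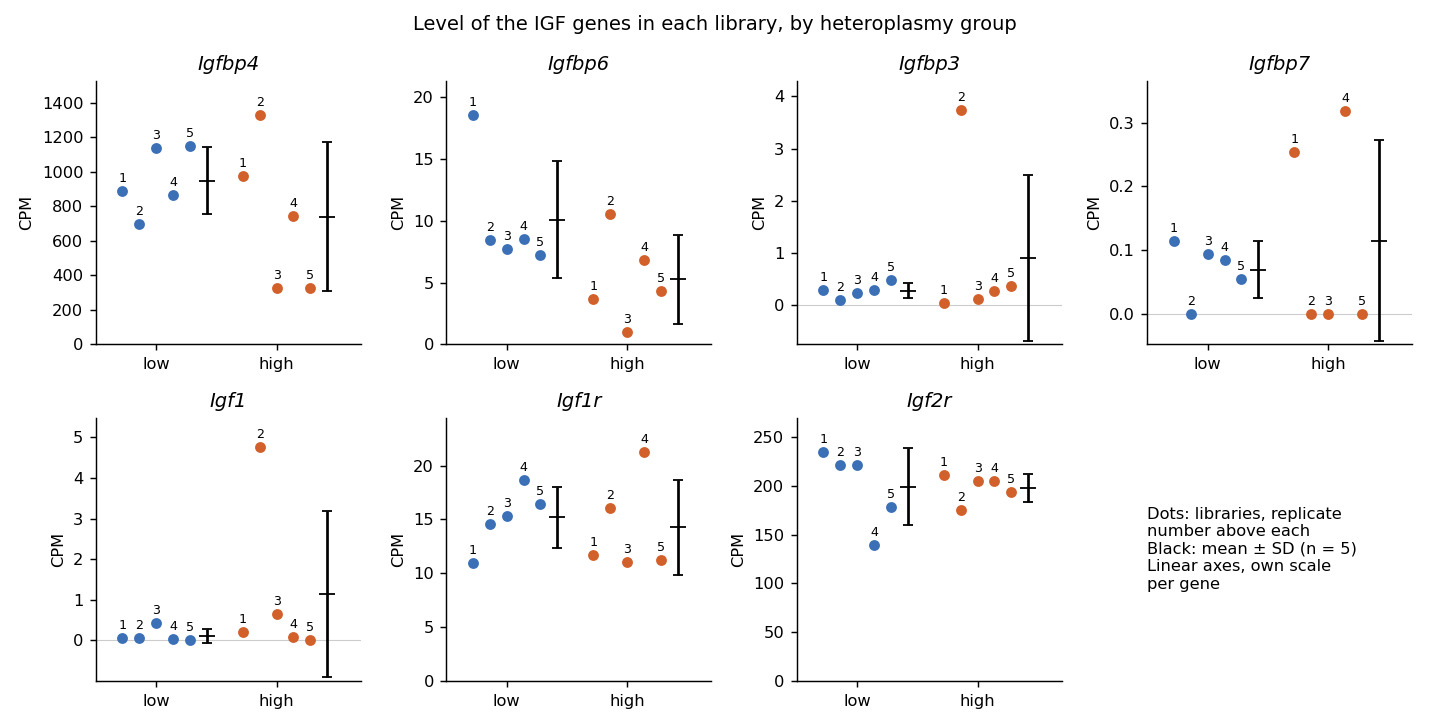
CPM of 7 IGF genes in each library (dots, replicate number above), with mean ± SD of the 5 libraries per group in black and a linear axis of its own per gene. The groups overlap for every gene, and high 2 holds the top value of Igfbp4, Igfbp3 and Igf1.

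Igf1 and Igfbp3, a ligand and the main IGF carrier of blood, were close to silent in all clones but 1. Igf1 (ENSMUSG00000020053, chromosome 10, 87858265 to 87937042) had 1, 1, 9, 1 and 0 counts in low 1 to low 5, and 4, 111, 17, 2 and 0 counts in high 1 to high 5. High 2 thus held 76.0% of its 146 counts, at 4.77 CPM, and high 3, the next highest, was at 0.642 CPM. Igfbp3 (ENSMUSG00000020427, chromosome 11, 7206086 to 7213923) had 5, 2, 5, 7 and 9 counts in the low and 1, 87, 3, 7 and 11 counts in the high libraries. High 2 held 63.5% of its 137 counts, at 3.73 CPM, where the other 9 libraries were at 0.0507 to 0.489 CPM. As a share of all counts in high 2, the exact 95% Clopper-Pearson interval was 4.13 to 6.05 CPM (here without TMM scaling) for Igf1 and 3.15 to 4.85 CPM for Igfbp3, which covers counting error only.

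Both genes fell under the filter on low counts. Without that filter, edgeR gave log2 fold changes of 3.21 for Igf1 (SE 1.47, adjusted p = 0.332) and 1.67 for Igfbp3 (SE 0.97, adjusted p = 0.433). These values rested on high 2: with that library also left out, an alternative chosen after seeing the data, they were 0.96 (SE 1.09, adjusted p = 0.679) and -0.40 (SE 0.66, adjusted p = 0.811). High 2 also had the highest levels of the PDGF receptor genes Pdgfra (50.8 CPM) and Pdgfrb (128 CPM), fibroblast markers that were at most 9.28 and 28.3 CPM elsewhere. Among other fibroblast markers, Fn1 also peaked in high 2, at 3644 CPM, with at most 1833 CPM elsewhere. Col1a1 (6196 CPM) and Vim (6352 CPM) did not peak there, and Dcn was at 0.172 CPM. The summed markers, at 16921 CPM, were below high 3 and high 4. The adipocyte marker Lpl had 216 of its 292 counts in high 2, the other 76 in high 4, and the adipocyte sum in high 2 was 107 CPM. Its sum of macrophage and leukocyte markers was 32.8 CPM, between the 11.8 and 90.4 CPM of other high libraries, with Ptprc at 0. The part of these markers in the Igf1 and Igfbp3 levels was not tested.

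Igfbp7 and Igfbp2 were at or near the limit of detection. Igfbp7 (ENSMUSG00000036256, chromosome 5, 77349240 to 77408041), an IGFBP-related matrix protein that binds IGFs weakly, had 20 counts in all, with 8 in high 4 and 5 in high 1 as the most and 0 in 4 libraries. Its gene model shares 85 exon bases with Polr2b on the other strand, which was at 86.3 to 177 CPM, and whether reads of Polr2b entered its count was not tested. Igfbp2 (ENSMUSG00000039323, chromosome 1, 72824503 to 72852474), a binding protein of fetal tissues, had 0 of 224049554 counts. A count of 0 allows a level of up to 0.0134 CPM over the 10 libraries together, on a limit of 3 counts.

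The genes with the most similar patterns were sought for the 3 members with an SD of log2 CPM of at least 1. The measure was the mean absolute difference in log2 CPM over the 10 libraries after taking each gene's mean out, and 3 genes were named per member. For Igf1 they were the collagen receptor gene Itga11 (difference 0.58), the collagen gene Col6a3 (0.71) and the secreted-protein gene Scube3 (0.72). All 3 peaked in high 2, at 66.1, 105 and 22.1 CPM. Itga11 (9.67 CPM) and Col6a3 (24.9 CPM) were next highest in high 3, as Igf1 was, and Scube3 in high 1 (1.72 CPM). For Igfbp3 they were Rgma, a BMP co-receptor gene (0.51), the zinc transporter gene Slc39a10 (0.54) and the ion cotransporter gene Slc12a2 (0.54). Of these Rgma peaked in high 2 by the widest gap (19.9 CPM, 0.913 to 3.37 elsewhere), whereas Slc39a10 was highest in low 5 (31.6 CPM). For Igfbp6 they were Paqr8 of the progestin receptor family (0.30), the connexin gene Gjc1 (0.37) and the ephrin receptor gene Ephb3 (0.38), all lowest in high 3, as Igfbp6 was. Between members, the nearest pair of those with counts was Igf1r and Igf2r (0.41), both steady, and Igf1 and Igfbp3 were 1.25 apart despite their shared peak. These are descriptions over 10 libraries that share their depth and scaling, and shared peaks or lows are part of how the genes were picked.

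**Figure D3:**
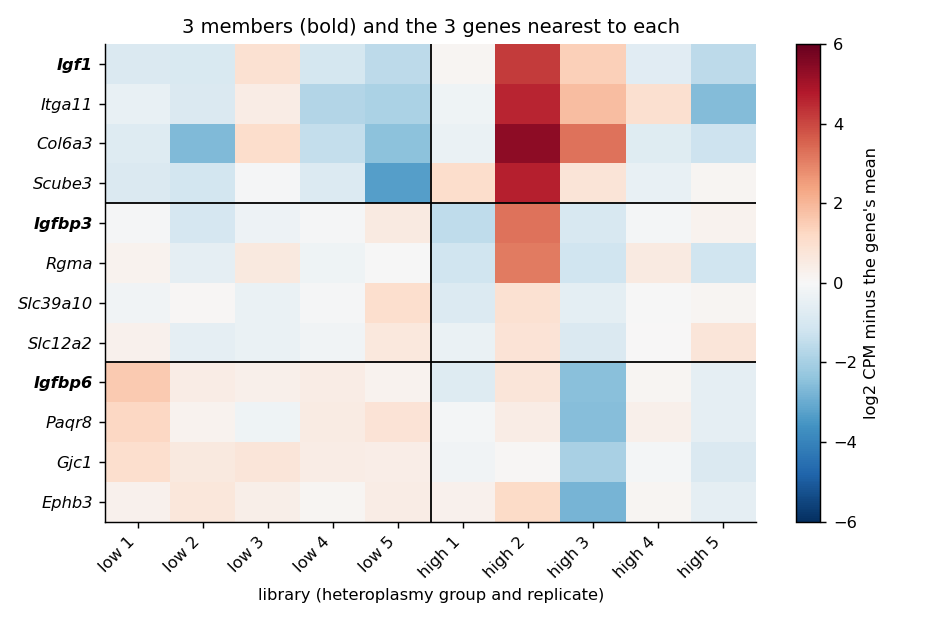
Heat map of log2 CPM minus each gene's mean (colour) in the 10 libraries (columns) for Igf1, Igfbp3 and Igfbp6 (bold) and the 3 nearest genes of each. The Igf1 block is red in high 2, and the Igfbp6 block is blue in high 3.

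Around the members, 5 lists of pathway genes were read in the same fit. Of 90 tested genes 11 passed (edgeR, adjusted p under 0.05), 6 higher and 5 lower in the high group. That is 12.2% beside 4.86% of all tested genes. DESeq2, which called 10.2% of all genes, called 18, and limma-voom, which called 5.3%, called 11. The lists were chosen with earlier results of these data known, so these shares are no independent evidence. Of the 11 edgeR calls, 4 lie on chromosome 8, where 27.6% of 700 tested genes were called lower. The groups did not overlap for 9 of the 90 genes (10%), beside 7.16% of all tested genes. The edgeR count of called list genes depended on single libraries, as did the count over all genes, 630 in the main fit. It was 2 without low 1 (236 of all genes called) and 3 without low 2 (244) or high 3 (232). It was 4 without low 3 (254), low 4 (270) or low 5 (372). It was 5 without high 2 (359) or high 5 (431), and 11 without high 1 (821) or high 4 (804). Without low 2 and low 3 together it was 0, where 56 of all genes were called. After each library's shift per chromosome was taken out it was 2 (Foxo1 and Trib1), where 164 were called.

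Of the list of other ligands, receptors and IGF2 mRNA-binding proteins 4 genes were tested, the receptor gene Insr and 3 mRNA-binding proteins. Of the 4, 1 rose, an mRNA-binding protein, where 1.99% of all tested genes rose. Igf2bp3, an oncofetal protein that binds Igf2 and other mRNAs, rose from 9.44, 26.8, 29.1, 30.1 and 31.6 CPM in low 1 to low 5 to 110.3, 53.0, 67.1, 60.7 and 36.2 CPM in high 1 to high 5. The groups did not overlap, with low 1 lowest and high 1 highest (log2 fold change 1.37, SE 0.35, edgeR adjusted p = 0.0489). This call held in 1 of 10 fits that left out a library, with adjusted p values up to 0.0943, and it was lost with limma-voom (0.0524). Insr, the insulin receptor, was at 65.4, 53.3, 47.7, 49.0 and 40.9 CPM in the low and 45.3, 36.7, 19.3, 32.6 and 23.9 CPM in the high libraries. Of the high libraries, 4 lay below every low library, and high 1 did not (log2 fold change -0.70, SE 0.23, edgeR adjusted p = 0.101). Insr lies on chromosome 8, where 27.6% of 700 tested genes were called lower, and after the chromosome shift was taken out it was at -0.14 (adjusted p = 0.787). Insr exceeded Igf1r per length in all libraries, by 3.04 to 7.27 times in the low and 1.87 to 4.74 times in the high group. Igf2bp2 (0.39, adjusted p = 0.181) and Igf2bp1 (-0.28, 0.540), relatives of Igf2bp3, did not pass. Igf2, the second ligand gene, was at 0 to 0.761 CPM.

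Genes for IGFBP-cutting proteases and their inhibitors had 1 fall and no rise among 10 tested, where 2.87% of all tested genes fell. All 10 log2 fold changes were below 0, with a median of -0.74 (-0.80 without the 3 genes on chromosome 8). With the chromosome shift taken out, Adam9 turned to 0.10. Plau, the urokinase gene of the plasmin system, fell from 61.7, 63.4, 55.8, 32.3 and 48.4 CPM in low 1 to low 5 to 20.8, 32.0, 35.7, 21.4 and 24.6 CPM in high 1 to high 5 (log2 fold change -0.96, SE 0.22, edgeR adjusted p = 0.0343). Only low 4 and high 3 crossed between the groups. The call held in 3 of 10 fits that left out a library, and Plau on chromosome 14 was at -0.62 (adjusted p = 0.216) without the chromosome shift. The next genes of the list did not pass with edgeR: Plat (-1.59, adjusted p = 0.0887), Adam9 (-0.50, 0.119) and Stc2, which encodes an inhibitor of pappalysin (-3.34, 0.141). Plat passed with DESeq2 (adjusted p = 0.0109) and Stc2 with limma-voom (0.0322), and Stc2 had 0 counts in high 1, high 3 and high 5. Plat and Adam9 are on chromosome 8. Pappalysin itself, Pappa, had 463 counts, of which 398 were in high 3 (15.0 CPM) and 58 in high 2 (2.49 CPM), with at most 3 in any other library. High 3, with the most Pappa, was also 1 of the 2 libraries lowest in Igfbp4, and high 5, the other, had 0 Pappa counts.

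Of 40 tested genes of IGF1R signalling 2 rose and 0 fell, a share near the 4.86% of all tested genes, and the list median was 0.04. Foxo1, the transcription factor held back by AKT, rose from 23.6, 17.7, 21.9, 18.8 and 17.5 CPM in low 1 to low 5 to 58.9, 40.5, 49.5, 29.5 and 34.3 CPM in high 1 to high 5. Every high library exceeded every low one (log2 fold change 1.095, SE 0.20, edgeR adjusted p = 0.0165). Pik3r3, a regulatory subunit of PI3 kinase, rose by 1.30 (SE 0.28, edgeR adjusted p = 0.0291), from 9.32 to 21.1 CPM in the low to 20.9 to 59.4 CPM in the high libraries, which met at low 2 and high 4. The Foxo1 call held in all 10 fits that left out a library and the Pik3r3 call in 4. Without low 2 and low 3 together they were at 1.11 (adjusted p = 0.0946) and 1.34 (0.0971). Pik3r2, a further regulatory subunit on chromosome 8, was at -0.78 (adjusted p = 0.0534), Braf at 0.84 (0.0546) and Gsk3b at 0.46 (0.0572), none past the threshold with edgeR. DESeq2 called all 3, with adjusted p values of 0.0118, 0.0092 and 0.0092 in that order.

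Of 14 tested genes known as FOXO targets, 2 rose and 0 fell, with a median of 0.21 and 4 of the 14 below 0. Of all tested genes 1.99% were called higher and 2.87% lower. At an unadjusted p under 0.05 edgeR had 3 of the 14, beside 21.6% of all tested genes. Trib1, a pseudokinase, rose from 12.9, 12.9, 19.9, 22.6 and 8.43 CPM in low 1 to low 5 to 62.2, 72.5, 47.8, 60.1 and 28.6 CPM in high 1 to high 5, with no overlap (log2 fold change 1.82, SE 0.31, edgeR adjusted p = 0.0135). Its call held in all 10 fits that left out a library. Without low 2 and low 3 together its log2 fold change was 1.90 and its adjusted p 0.0716. Cited2, a transcriptional coregulator, rose by 1.29 (SE 0.32, edgeR adjusted p = 0.0421), with low 4 (194 CPM) above high 5 (178 CPM). The Cited2 call was kept by 3 fits that left out a library. Pik3ip1 (1.16, adjusted p = 0.143), Ccng2 (-0.51, 0.289) and Sesn3 (0.59, 0.303) did not pass.

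Of 22 tested genes of mannose 6-phosphate sorting, the pathway served by Igf2r, 4 fell and 1 rose. Of all tested genes 2.87% were called lower and 1.99% higher. The falls were Ap1g1 (log2 fold change -0.58, SE 0.13) and Ap1m1 (-0.58, SE 0.14), subunits of the AP-1 clathrin adaptor, Vps35 of the retromer (-0.74, SE 0.19) and Man2b1, a lysosomal mannosidase (-0.65, SE 0.15). Their edgeR adjusted p values were 0.0299, 0.0421, 0.0437 and 0.0314 in that order. No high value of any of them reached a low value, a separation found for 7.16% of all tested genes. All 4 lie on chromosome 8, and they were every chromosome 8 gene tested in this list. After the chromosome shift was taken out they were between -0.01 and -0.18 with none called. Nagpa, the enzyme that uncovers the mannose 6-phosphate tag, rose by 0.69 (SE 0.17, edgeR adjusted p = 0.0456), from 29.3 to 49.0 CPM in the low to 47.7 to 79.1 CPM in the high libraries. Ctsb (-0.53, adjusted p = 0.0632), Vps29 (-0.39, 0.0998) and Gga1 (0.43, 0.124) did not pass with edgeR, whereas DESeq2 called Ctsb (adjusted p = 0.0126) and Vps29 (0.0448). Among fits that left out a library, the Ap1g1 call held in 5, Man2b1 in 3, Vps35 in 2, and Ap1m1 and Nagpa in 1 each.

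**Figure D4:**
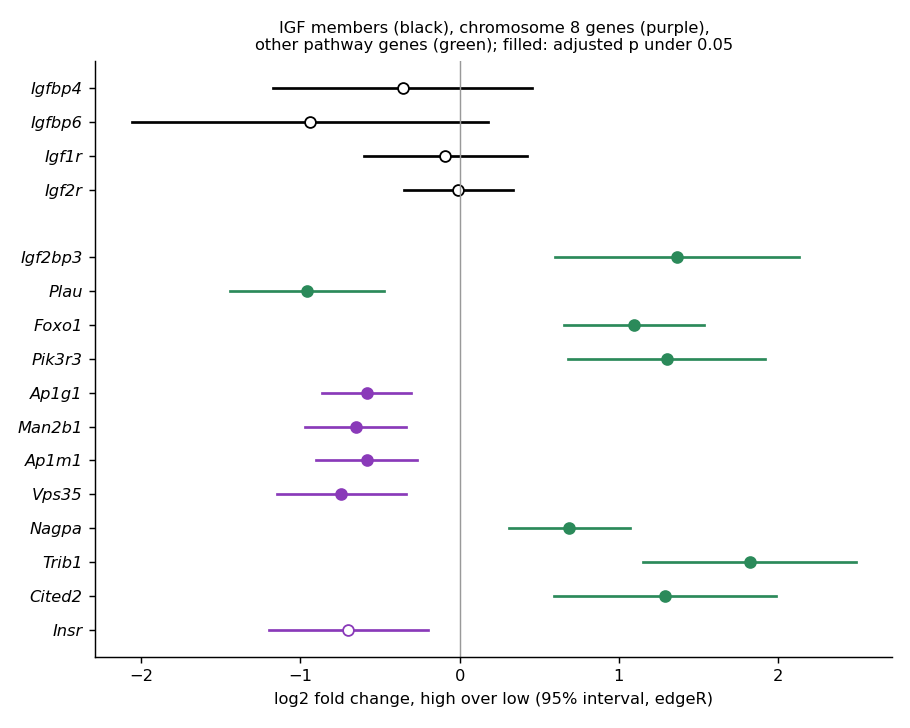
Log2 fold change, high over low, with its 95% interval (edgeR, not adjusted for many genes) for the 4 tested members in black and for the called pathway genes and Insr in colour, purple on chromosome 8 and green elsewhere. Filled points passed at an adjusted p under 0.05. The members' intervals all span 0.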

How the data were processed

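The authors deposited whole read counts per Ensembl gene, 1 column per library, per the file headers. STAR 2.7.8a, R 4.2.1, DESeq2 1.36.0 and GRCm38 stand in the submitters' processing notes without their roles. How reads were counted, with or without strand, and on which annotation was not given in the sources read. Genes were named, placed and measured in length with GENCODE M21, and 195 identifiers had no name.

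Counts were tested over all genes with edgeR 4.0.16 in R 4.3.3 (expression filter by group, TMM, robust quasi-likelihood F-test, Benjamini-Hochberg, threshold 0.05, group as the only term). DESeq2 1.42.0 and limma-voom (limma 3.58.1), 2 other scalings, 2 other filters, a replicate block, a chromosome offset, leaving out low 2 and low 3 (known from earlier results for a ribosomal RNA-like transcript) and leaving out each library were alternatives. Log2 CPM used a prior count of 2. The code was tested on simulated data. The members, gene lists and tests were chosen with earlier results of these data known. Named were all members, the called genes and the 3 next by p of each pathway list, and the 3 genes nearest in pattern to each member with an SD of at least 1. Grb10, Pappa, Pappa2 and the marker genes given by value, chosen after their values were seen, lie outside this rule. Figures were drawn with matplotlib 3.10.9.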

Additional observations from a re-analysis of the deposited data

Results flagged for a closer look

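In groups of 5, a library was marked when its gap to the nearest other exceeded 0.71 of the group's range (Dixon's 95% value). Of 66 groups checked 9 were marked. The rule marks about 1 in 20 by chance for normally distributed values. CPM near 0 are not such values, so the 9 were not read against that rate. Among the members these were Igf1 in high 2 (4.77 CPM, others 0 to 0.642) and in low 3 (0.422 CPM, from 9 counts), Igfbp3 in high 2 (3.73 CPM) and Igfbp6 in low 1 (18.5 CPM, others 7.23 to 8.53). Among the pathway genes Stc2 in high 2 (1.37 CPM) and Sesn3 in low 3 (5.86 CPM) stood above their groups. Igf2bp3 in low 1 (9.44 CPM), Igf2bp1 in high 3 (80.8 CPM) and Braf in low 4 (12.04 CPM) stood below theirs.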

How the results depend on the processing

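The count of called members was 0 in all alternatives, leave-one-out fits included (0 to 0). The sign of Igfbp4, Igfbp6 and Igf1r stayed below 0 in all 20 fits. Igf2r turned from -0.01 to 0.0129 with upper-quartile scaling, 0.00866 with no filter, 0.0135 with limma-voom, 0.0132 with the replicate block and 0.00249 with DESeq2, to 0.12 without low 2 and low 3, and to 0.056, 0.048, 0.033 and 0.032 without low 1, low 2, low 3 and high 2 (range -0.11 to 0.056 with 1 library left out). Adam9 turned to 0.10 with the chromosome offset, and Igfbp3 without a filter to -0.40 when high 2 was left out. The 630 called genes became 1640 with DESeq2, 164 with the chromosome offset, 56 without low 2 and low 3 and 232 to 821 with 1 library left out. The 11 called pathway genes became 6 without a filter, 18 with DESeq2, 2 with the offset, 0 without low 2 and low 3 and 2 to 11 with 1 library left out. The cause was not tested. Same-numbered libraries deviated together in 2 of 5 pairs (r over 0.1, range -0.053 to 0.46), and 4 of 10 libraries were closest to their own number, so the numbers were not taken to pair the samples. With the replicate block 0 members, 10 pathway genes and 577 genes were called. Igfbp7, with 20 counts in all, was limited by depth, and the Igf1 and Igfbp3 values by the single library high 2.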

Other observations

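Grb10 is an imprinted adaptor gene whose protein binds and restrains IGF1R and the insulin receptor. It differed widely between clones of the high group and had counts in every low library. It had 0 CPM in high 1 and 0.302 CPM in high 3, against 192 CPM in high 2, 148 CPM in high 4 and 46.2 CPM in high 5. The low libraries were at 27.6, 82.2, 65.6, 46.5 and 211 CPM in low 1 to low 5. Pappa2, the second pappalysin, was highest in high 2, the clone with the most Igf1 and Igfbp3, at 2.53 CPM (59 of its 112 counts).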
